A study of Mus musculus with 13 samples.

Results

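The 41 genes described here are type I interferon-stimulated genes, a list of factors, sensors and antiviral effectors that cells transcribe in response to interferon. They were listed by name, and earlier results of these data were known when the list was made. All 41 were found among the 34419 genes counted in gluteal white adipose tissue (WAT), the subcutaneous fat over the hindquarters, and all 41 passed the filter on low counts that left 17779 genes to test. Gluteal WAT came from male C57BL/6J mice that lived at 22°C (n = 7) or at 29°C (n = 6, thermoneutrality for mice) from birth until they were 13 weeks old. All 13 mice, at both temperatures, had their posterior hair removed after weaning, and each was kept alone with little bedding and without nest material. Each mouse gave 1 library of whole tissue, so the values mix adipocytes with blood vessel, immune and other cells.

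Type I interferons bind the receptor IFNAR1-IFNAR2, whose kinases JAK1 and TYK2 phosphorylate STAT proteins. STAT2 and IRF9 are subunits of ISGF3, a factor that binds interferon-stimulated response elements (ISREs) near its target genes. The products sense foreign RNA, degrade it, block its translation or tag proteins with ISG15, and many are present at a basal level without infection. Adipocytes, macrophages and endothelial cells of fat can all make them.

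Most interferon-stimulated genes had lower mean levels in the cool-housed mice, and 6 of the 41 were called lower at 22°C with edgeR's quasi-likelihood test (P-adj below 0.1, adjusted over all genes tested). These were *Samd9l*, *Ifi44*, *Ifit3*, *Ifih1*, *Ifit3b* and *Xaf1*. Of all genes tested, 1.21% were called lower at 22°C and 0.731% higher. No member was called higher, none was higher at an unadjusted p below 0.05, and none was higher with DESeq2. The fitted log2 fold change (22°C minus 29°C) was below 0 for 40 of 41 members, where 48.4% of all genes tested were below 0. *Dtx3l* was the exception. The median log2 fold change of the members was -0.29, beside 0.01 for all genes tested, and 24 members were lower at an unadjusted p below 0.05, as were 8.2% of all genes. The ranges of the 7 and 6 mice did not overlap for *Samd9l*, *Ifi44*, *Ifit3* and *Ifit3b*. For all genes tested, such a gap with the lower values at 22°C was seen in 0.748%.

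The number of calls depended on the test more than the direction did. DESeq2 called 17 members lower, including the 6 above, while it called 4.65% of all the genes it adjusted lower and 5.58% higher. The added calls were *Stat2*, *Irf9*, *Ddx58*, *Eif2ak2*, *Oas2*, *Herc6*, *Parp14*, *Cmpk2*, *Bst2*, *Rtp4* and *Rnf213*. At P-adj below 0.05 with edgeR, *Samd9l* and *Ifi44* remained. Library totals ran from 22356637 to 25245785 counts. The 5 libraries with the lower totals were all from mice at 22°C (replicates 1 to 5), so the temperatures could be compared at similar totals only with 22°C replicates 6 and 7 against all 6 mice at 29°C. In that comparison edgeR called 0 members and 0.0368% of all genes lower. At an unadjusted p below 0.05, 16 members and 5.58% of all genes were lower. Fold changes were below 0 there for 40 of 41 members and 51.4% of all genes, with a member median of -0.31. These 2 mice at 22°C differed. The median over the members of log2 CPM minus the 29°C mean was -0.08 in replicate 6 and -0.42 in replicate 7. Skeletal muscle markers made up 0.112% of the counts in replicate 6 and 6.80% in replicate 7.

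**Figure D1:**
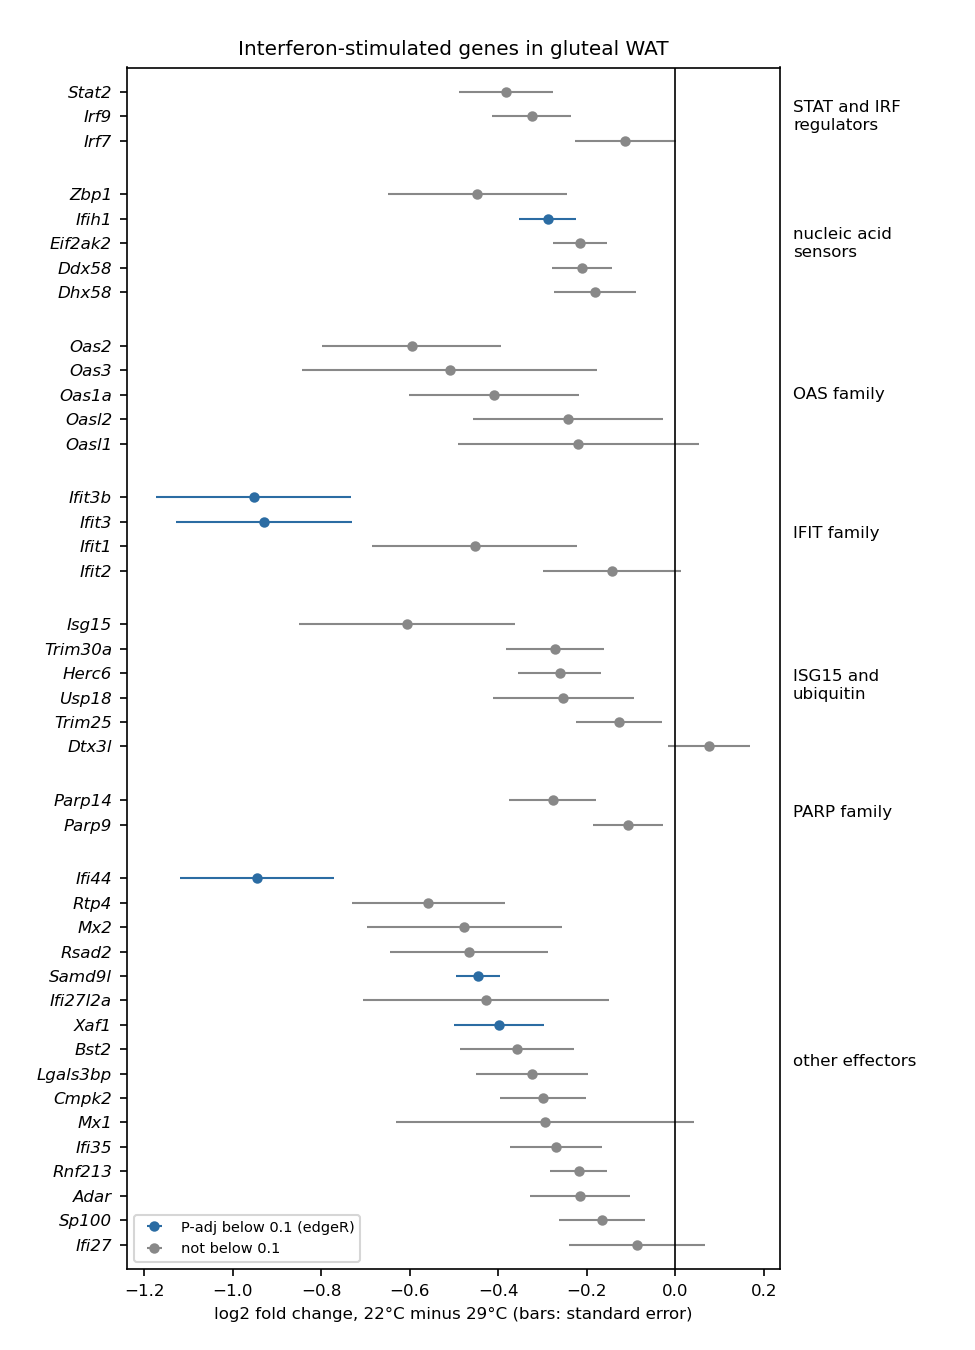
Log2 fold change of each of the 41 interferon-stimulated genes between 22°C (n = 7) and 29°C (n = 6), by role, with the standard error as a bar. The 6 genes in blue had P-adj below 0.1 with edgeR, and every point except *Dtx3l* lies below 0.

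The promoters show which of these genes carry an exact form of the letters that ISGF3 reads close to their start. RefSeq promoter windows of 300 bases, from 250 before to 50 after the annotated start on GRCm38.p6, were at hand for 30 of the 41 members. They were searched on both strands for the ISRE core GAAANNGAAA. The core was present in 13 of these 30 members (43.3%), in 3.87% of the tested genes with a window and in 3.99% of all genes in the promoter table. A longer form, GAAANNGAAACT, which contains the core, was present in 7 members (23.3%) and in 0.438% of the tested genes with a window. The gamma-activated site TTCNNNGAA, a motif of interferon gamma responses, was present in 6 members (20%) and in 8.29% of the tested genes with a window. Members were listed as interferon targets, so these shares describe the list. Among the genes called lower, 3 of 6 held the core, and among the members not called, 10 of 24 did. The median log2 fold change was -0.41 for the 13 members with the core and -0.24 for the 17 without it. The ranges overlapped widely, from -0.95 to -0.21 with the core and from -0.94 to 0.08 without it, and the difference was not tested. A match is a run of letters and not a measured binding site. Other spellings of the ISRE were not searched for, so a window without a match may still hold one.

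The 8 windows below are those of the 3 regulators *Stat2*, *Irf9* and *Irf7*, of *Samd9l*, *Ifi44* and *Ifit3* as the called genes with the smallest p, and of *Ifit3b* and *Isg15*, which were added after their values were seen because they hold several cores. Each is written 5′ to 3′ on the strand of its gene, and capitals mark matches to the core on either strand. The windows are *Stat2* at chr10:128270248-128270547 (plus strand), *Irf9* at chr14:55603735-55604034 (plus, the first of its windows), *Irf7* at chr7:141266375-141266674 (minus), *Samd9l* at chr6:3399522-3399821 (minus), *Ifi44* at chr3:151749861-151750160 (minus), *Ifit3* at chr19:34583279-34583578 (plus), *Ifit3b* at chr19:34607707-34608006 (plus) and *Isg15* at chr4:156200769-156201068 (minus).
Stat2: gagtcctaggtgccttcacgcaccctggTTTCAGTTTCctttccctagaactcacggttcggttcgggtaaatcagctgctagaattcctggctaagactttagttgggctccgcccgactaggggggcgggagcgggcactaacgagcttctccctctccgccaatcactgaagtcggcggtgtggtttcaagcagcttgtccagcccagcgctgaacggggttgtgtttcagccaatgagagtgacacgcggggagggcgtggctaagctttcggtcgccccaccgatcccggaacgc
Irf9: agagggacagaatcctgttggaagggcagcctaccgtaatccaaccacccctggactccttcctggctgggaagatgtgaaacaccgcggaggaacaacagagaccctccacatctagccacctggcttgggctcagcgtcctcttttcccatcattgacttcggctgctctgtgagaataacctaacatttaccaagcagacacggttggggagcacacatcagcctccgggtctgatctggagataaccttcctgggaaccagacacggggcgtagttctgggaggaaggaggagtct
Irf7: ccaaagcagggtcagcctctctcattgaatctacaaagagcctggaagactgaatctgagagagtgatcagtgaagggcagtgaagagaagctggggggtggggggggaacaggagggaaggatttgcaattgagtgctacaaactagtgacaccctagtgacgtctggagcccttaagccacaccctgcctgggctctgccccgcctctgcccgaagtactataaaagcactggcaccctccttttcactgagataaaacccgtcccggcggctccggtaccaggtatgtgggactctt
Samd9l: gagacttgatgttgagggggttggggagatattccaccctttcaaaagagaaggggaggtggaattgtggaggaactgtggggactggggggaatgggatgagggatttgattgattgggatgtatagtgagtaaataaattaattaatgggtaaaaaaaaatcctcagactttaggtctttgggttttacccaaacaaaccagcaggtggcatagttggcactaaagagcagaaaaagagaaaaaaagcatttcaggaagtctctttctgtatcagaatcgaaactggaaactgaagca
Ifi44: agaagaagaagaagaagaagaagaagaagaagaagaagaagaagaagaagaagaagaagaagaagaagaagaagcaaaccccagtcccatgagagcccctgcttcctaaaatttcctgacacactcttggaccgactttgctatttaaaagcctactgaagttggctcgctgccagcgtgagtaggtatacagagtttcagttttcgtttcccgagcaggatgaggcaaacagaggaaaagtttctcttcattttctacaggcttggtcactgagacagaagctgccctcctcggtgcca
Ifit3: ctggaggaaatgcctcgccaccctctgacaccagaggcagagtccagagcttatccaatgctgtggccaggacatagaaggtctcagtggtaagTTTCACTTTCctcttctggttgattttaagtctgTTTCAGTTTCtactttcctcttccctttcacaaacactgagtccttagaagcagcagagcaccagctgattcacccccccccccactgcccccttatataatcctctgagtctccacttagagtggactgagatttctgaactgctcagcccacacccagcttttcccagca
Ifit3b: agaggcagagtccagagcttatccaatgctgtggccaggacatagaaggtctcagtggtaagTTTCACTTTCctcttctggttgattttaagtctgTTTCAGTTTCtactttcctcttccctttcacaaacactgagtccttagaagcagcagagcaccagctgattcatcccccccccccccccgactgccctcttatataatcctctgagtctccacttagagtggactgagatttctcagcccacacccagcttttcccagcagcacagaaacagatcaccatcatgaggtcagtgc
Isg15: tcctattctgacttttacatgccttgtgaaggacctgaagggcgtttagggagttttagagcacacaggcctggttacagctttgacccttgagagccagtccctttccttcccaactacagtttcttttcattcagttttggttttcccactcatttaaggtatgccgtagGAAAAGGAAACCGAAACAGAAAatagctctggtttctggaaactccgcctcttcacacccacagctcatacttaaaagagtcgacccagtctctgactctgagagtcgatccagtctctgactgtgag

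*Ifit3* and *Ifit3b* each held a pair of cores on the strand opposite the gene, the first of them starting 156 and 188 bases before the annotated start. The window of *Isg15* held 3 overlapping cores that began 78, 72 and 66 bases before the start. In *Stat2* the single core lay 222 bases before the start. The windows of *Irf9*, *Irf7*, *Samd9l* and *Ifi44* held no match to these letters.

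**Figure D2:**
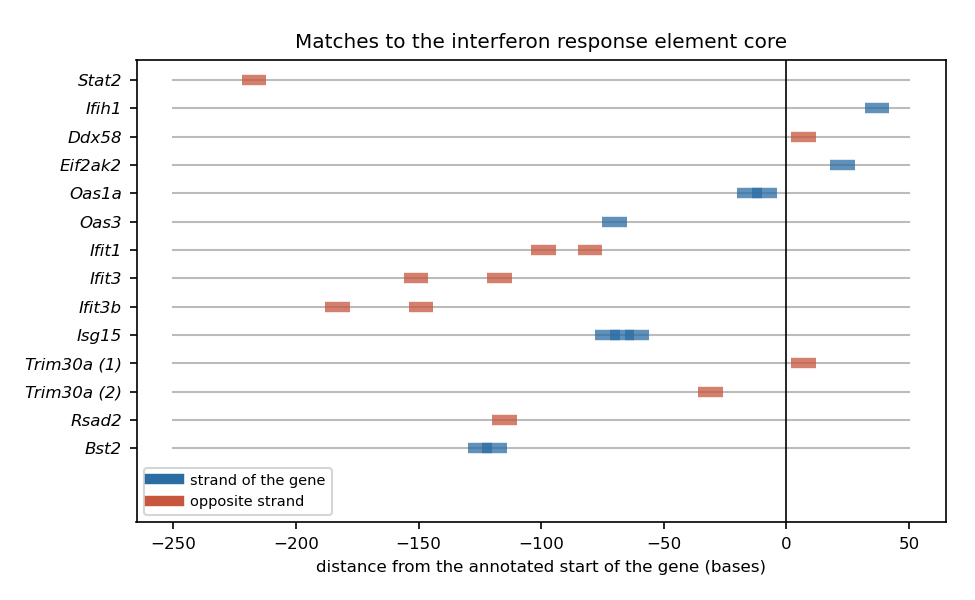
Position of each match to the ISRE core in the promoter windows of the 13 members that held it, in bases from the annotated start of the gene; grey lines span the window and colour gives the strand. *Trim30a* appears with both of its windows, and most matches lie within 130 bases of the start, with those of *Stat2* and *Ifit3b* and the first of *Ifit3* farther upstream.

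The STAT and IRF regulators among the members are *Stat2* and *Irf9*, the subunits that make ISGF3 specific to type I and type III interferon, and *Irf7*, which drives transcription of interferon genes. None of the 3 was called with edgeR. *Stat2* lay between 27.0 and 42.4 CPM (counts scaled to a common library size) with median 38.4 at 22°C and between 41.7 and 59.7 with median 46.5 at 29°C. *Irf9* lay between 23.9 and 38.3 CPM (median 31.6) at 22°C and between 37.2 and 42.0 (median 40.2) at 29°C. For each of these genes 6 of the 7 cool-housed mice were below every mouse at 29°C. The log2 fold change of *Stat2* was -0.38 (SE 0.11, P-adj = 0.118), and DESeq2 gave P-adj = 0.0235. That of *Irf9* was -0.32 (SE 0.09, P-adj = 0.116), with P-adj = 0.0229 in DESeq2. *Irf7* ran from 31.7 up to 54.7 CPM (median 50.6) at 22°C, and the 29°C mice from 44.0 up to 58.0 (median 49.7). Its groups overlapped widely, and the log2 fold change was -0.11 (95% interval -0.36 to 0.13, P-adj = 0.642).

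Sensors of foreign nucleic acid were below 0 for all 5 members, and 1 of 5 was called. *Ifih1* encodes MDA5, the cytoplasmic sensor of long double-stranded RNA. Its level was between 27.9 and 37.0 CPM (median 32.3) at 22°C and between 36.4 and 44.2 (median 39.6) at 29°C. The highest cool-housed mouse, alone of the 7, reached into the 29°C range. *Ifih1* fell to 81.9% of its 29°C level (32.4 ± 2.65 against 39.6 ± 2.74 CPM, SD; log2 fold change -0.29, 95% interval -0.43 to -0.15, P-adj = 0.0726). *Ddx58* encodes RIG-I, which reads RNA ends, and 6 of 7 mice at 22°C were again below the 29°C range of 43.5 to 48.3 CPM (log2 fold change -0.21, SE 0.07, P-adj = 0.153; DESeq2 P-adj = 0.0586). *Eif2ak2*, the kinase PKR that halts translation on double-stranded RNA, had 22.2 ± 1.56 CPM at 22°C and 25.8 ± 1.48 at 29°C (log2 fold change -0.22, P-adj = 0.122; DESeq2 P-adj = 0.0295). *Dhx58*, which encodes LGP2, a helicase that tunes both RNA sensors, was at -0.18 (SE 0.09, P-adj = 0.320). *Zbp1*, a sensor of Z-form nucleic acid that can start cell death, was at -0.45 but with a wide SE of 0.20 (P-adj = 0.259).

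Oligoadenylate synthetases make a short RNA messenger when they meet double-stranded RNA. No member of this family was called, although all 5 fold changes were below 0. *Oas2* lay between 6.17 and 15.7 CPM (median 11.5) at 22°C and between 13.3 and 21.3 (median 16.8) at 29°C. Of the 7 cool-housed mice, 5 were below all mice at 29°C, and the fold change on the log2 scale was -0.60 (SE 0.20, P-adj = 0.170; DESeq2 P-adj = 0.0536). *Oas1a* was at -0.41 (SE 0.19, P-adj = 0.272), and 57.6% of its 50-base stretches also occur in its neighbour *Oas1g*, so its counts are uncertain. *Oas3* was sparse, with 1.59 ± 0.824 CPM at 22°C and 2.28 ± 0.767 at 29°C (log2 fold change -0.51, SE 0.33). The OAS-like genes *Oasl1* (-0.22, SE 0.27) and *Oasl2* (-0.24, SE 0.21) had P-adj of 0.713 and 0.584. Their intervals, -0.81 to 0.37 for *Oasl1*, are too wide to tell a difference from none.

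IFIT proteins bind viral RNA and block its translation, and 2 of the 4 members of this family were called lower with edgeR. *Ifit3* lay between 9.22 and 28.3 CPM (median 18.99) at 22°C and between 30.4 and 43.7 (median 37.2) at 29°C. *Ifit3b*, its close copy, lay between 3.32 and 9.55 CPM (median 7.07) at 22°C and between 10.7 and 15.4 (median 13.1) at 29°C. In both genes every cool-housed mouse was below every mouse at 29°C. *Ifit3* fell to 52.5% of its 29°C level (19.5 ± 6.16 against 37.1 ± 5.03 CPM; log2 fold change -0.93, 95% interval -1.36 to -0.50, P-adj = 0.0703). *Ifit3b* fell to 51.7% (6.75 ± 2.31 against 13.1 ± 2.12 CPM; log2 fold change -0.95, 95% interval -1.43 to -0.48, P-adj = 0.0785). In the GENCODE annotation of GRCm38, 51.2% of the 50-base stretches of *Ifit3* also occur in *Ifit3b*, so these are not independent readings and the split of counts between them is uncertain. *Ifit1* (-0.45, SE 0.23, P-adj = 0.317) and *Ifit2* (-0.14, 95% interval -0.48 to 0.19, P-adj = 0.671) were not called, and the ranges of both genes overlapped. The promoter window of *Ifit1* holds a pair of cores as well, and that of *Ifit3* is shown above.

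**Figure D3:**
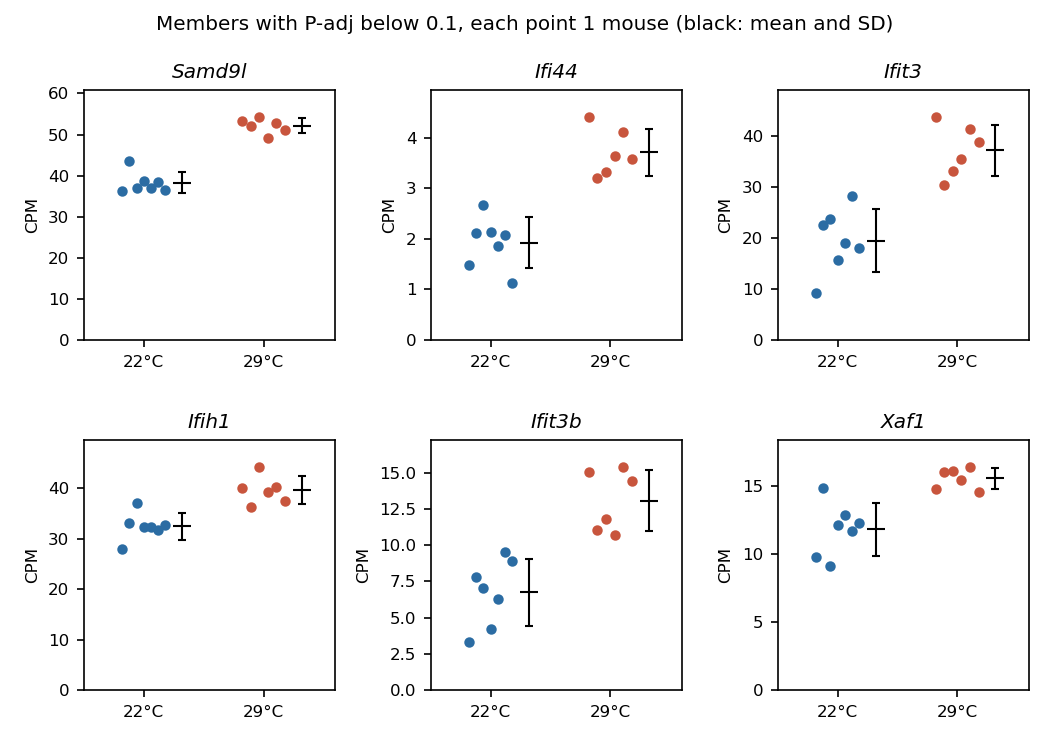
CPM of the 6 members with P-adj below 0.1, with each point 1 mouse and the mean and SD in black; every axis starts at 0. The groups are separate for *Samd9l*, *Ifi44*, *Ifit3* and *Ifit3b*, and 1 mouse at 22°C reaches the 29°C range for *Ifih1* and *Xaf1*.

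ISG15 is a ubiquitin-like protein that is attached to other proteins, and the genes around it were lower in 5 of 6 cases without any edgeR call. *Isg15* itself lay between 1.69 and 5.82 CPM (median 3.30) at 22°C and between 4.13 and 7.72 (median 4.65) at 29°C. All cool-housed mice except replicate 6 were below the 29°C range, and the log2 fold change was -0.61 (SE 0.24, P-adj = 0.215). *Herc6*, the ligase that attaches ISG15 in mice, was at -0.26 (P-adj = 0.184; DESeq2 P-adj = 0.0970), and 12% of its 50-base stretches are shared with an overlapping transcript. *Usp18*, the protease that removes ISG15 and dampens the interferon receptor, was at -0.25 (SE 0.16, P-adj = 0.420). Among the ubiquitin ligases, *Trim30a* was at -0.27 (SE 0.11, P-adj = 0.217) and *Trim25*, which acts on RIG-I, was at -0.13 (95% interval -0.34 to 0.08, P-adj = 0.523).

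*Dtx3l* was the only member whose fitted fold change was above 0. It lay between 50.2 and 75.4 CPM (median 53.1) at 22°C and between 48.8 and 57.1 (median 54.1) at 29°C. Its median was lower at 22°C while its mean was higher, because of 22°C replicate 3, and the log2 fold change of 0.08 (95% interval -0.12 to 0.28, P-adj = 0.701) was -0.0042 without that mouse. DTX3L works as a complex with PARP9, and their genes lie head to head on opposite strands with 458 shared exon bases. *Parp9* was at -0.11 (95% interval -0.28 to 0.07, P-adj = 0.509). *Parp14*, which encodes an ADP-ribosyltransferase, was at -0.28 (SE 0.10, P-adj = 0.178; DESeq2 P-adj = 0.0812), with 56.9 ± 7.79 CPM at 22°C and 68.9 ± 6.77 at 29°C.

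The other effectors held the most firmly separated gene of the list. *Samd9l* encodes an antiviral protein that restrains translation and cell growth. Its level was between 36.4 and 43.6 CPM (median 37.1) at 22°C and between 49.1 and 54.3 (median 52.5) at 29°C. All 7 cool-housed mice were below all 6 mice at 29°C, and the spread within each group was small. *Samd9l* fell to 73.4% of its 29°C level (38.3 ± 2.54 against 52.1 ± 1.85 CPM; log2 fold change -0.45, 95% interval -0.55 to -0.34, P-adj = 0.00216). By p it was number 4 among the 17779 genes tested, and it was called in each of the 13 fits that left out a mouse, where its P-adj ran from 0.00127 to 0.0110. With the mean log2 level of the muscle markers as a covariate its P-adj was 0.0161. When the fit had a term for lower or higher library totals, its fold change was -0.47 and the P-adj of 0.118 no longer passed.

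*Ifi44*, which encodes an interferon-induced cytoplasmic protein, lay between 1.13 and 2.67 CPM (median 2.08) at 22°C. At 29°C it lay between 3.20 and 4.41 CPM (median 3.61), so the groups did not overlap. *Ifi44* fell to 52.0% of its 29°C level (1.93 ± 0.500 against 3.71 ± 0.465 CPM; log2 fold change -0.94, 95% interval -1.32 to -0.57, P-adj = 0.0463). A count of 3 corresponds to at most 0.158 CPM in any library, so these low levels were above the counting floor. *Xaf1* encodes a partner of the apoptosis inhibitor XIAP. It lay between 9.11 and 14.8 CPM (median 12.1) at 22°C, and between 14.6 and 16.4 (median 15.7) at 29°C, and 6 of 7 cool-housed mice were below the 29°C range. *Xaf1* fell to 75.9% (11.8 ± 1.92 against 15.5 ± 0.747 CPM; log2 fold change -0.40, SE 0.10, P-adj = 0.0972). This P-adj was close to the threshold, and leaving out 29°C replicate 3 raised it to 0.209.

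Leaving out 29°C replicate 3 ended every call but that of *Samd9l*, with P-adj of 0.107 for *Ifi44*, 0.150 for *Ifit3*, 0.170 for *Ifih1* and 0.170 for *Ifit3b*. In that fit 0.15% of all genes were called lower. Without 22°C replicate 6, 12 members and 2.03% of all genes were called lower, so the counts of calls moved over all genes and not only in this list. Over the 13 fits *Ifi44* was called in 12, *Ifit3* in 6, *Ifit3b* in 4, *Ifih1* in 3 and *Xaf1* in 2. The median fold change of the 41 members stayed between -0.35 and -0.26 in these fits.

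Effectors that act on RNA, nucleotides or virus particles were below 0 without an edgeR call. *Rtp4*, an interferon-induced regulator of receptor transport, had 17.0 ± 4.22 CPM at 22°C and 25.01 ± 5.73 at 29°C (log2 fold change -0.56, P-adj = 0.144; DESeq2 P-adj = 0.0381). *Bst2*, the tetherin that holds virus particles on the cell surface, had 24.0 ± 5.30 and 30.7 ± 2.99 CPM (log2 fold change -0.36, P-adj = 0.185; DESeq2 P-adj = 0.0883). *Rsad2* encodes viperin, which makes a chain-terminating nucleotide, and *Cmpk2*, its neighbour in the genome, encodes a nucleotide kinase. *Rsad2* was at -0.47 (SE 0.18, P-adj = 0.202) and *Cmpk2* at -0.30 (SE 0.10, P-adj = 0.157; DESeq2 P-adj = 0.0554). The dynamin-like GTPases *Mx1* (-0.29, SE 0.34, P-adj = 0.685) and *Mx2* (-0.48, SE 0.22, P-adj = 0.268) were among the sparsest members, and the C57BL/6J strain carries defective alleles of both. *Adar*, which edits adenosine to inosine in double-stranded RNA, was at -0.22 (SE 0.11, P-adj = 0.333), and 16.8% of its exon bases overlap *Chrnb2* on the opposite strand. *Rnf213*, a giant ubiquitin ligase, had 81.9 ± 7.54 CPM at 22°C and 95.3 ± 4.41 at 29°C, a small difference with a small error (log2 fold change -0.22, SE 0.06, P-adj = 0.126; DESeq2 P-adj = 0.0247).

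The most abundant members per length of exon were *Ifi27l2a*, *Ifi27* and *Lgals3bp*. Their levels at 29°C were 1967 ± 530.1, 187 ± 45.2 and 133 ± 23.6 CPM per kb, against 0.322 ± 0.108 for *Oas3*, the lowest. *Ifi27l2a* and *Ifi27* encode small membrane proteins, and *Lgals3bp* encodes a secreted glycoprotein. *Ifi27l2a* lay between 248 and 1069 CPM (median 692) at 22°C and between 546 and 1234 (median 916) at 29°C (log2 fold change -0.43, SE 0.28, P-adj = 0.435). Its lowest mice were 22°C replicates 7 and 6 with 248 and 482 CPM, the same pair that had higher library totals. In the fit on libraries with higher totals alone its log2 fold change was therefore -1.33. *Ifi27* was at -0.09 (95% interval -0.42 to 0.25, P-adj = 0.805) and changed sign in several fits. *Lgals3bp* had 303 ± 45.7 and 379 ± 67.1 CPM (log2 fold change -0.32, P-adj = 0.206). *Ifi35*, which pairs with the transcription factor BATF, was at -0.27 (SE 0.10, P-adj = 0.203), and *Sp100*, a protein of nuclear bodies, was at -0.17 (SE 0.10, P-adj = 0.381). Counts are also uncertain for members whose exons overlap another transcript, which holds for 16.8% of the exon bases of *Ifi35*, 13.9% of *Rtp4* and 8.74% of *Rnf213*.

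The members did not vary independently from mouse to mouse. 22°C replicate 1 had the lowest CPM of all 13 mice for 29 of the 41 members, and 29°C replicate 1 had the highest for 19. The median over the 41 members of log2 CPM minus the 29°C mean was -0.69 in 22°C replicate 1, -0.44 in replicate 3 and -0.42 in replicate 7. It was -0.25 in replicate 5, -0.24 in replicate 4, -0.10 in replicate 2 and -0.08 in replicate 6. In the 29°C mice it ran from -0.11 to 0.14. By this median 22°C replicates 2 and 6 lay within the 29°C range and the other 5 cool-housed mice lay below it, whereas for *Samd9l*, *Ifi44*, *Ifit3* and *Ifit3b* all 7 were below every mouse at 29°C.

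**Figure D4:**
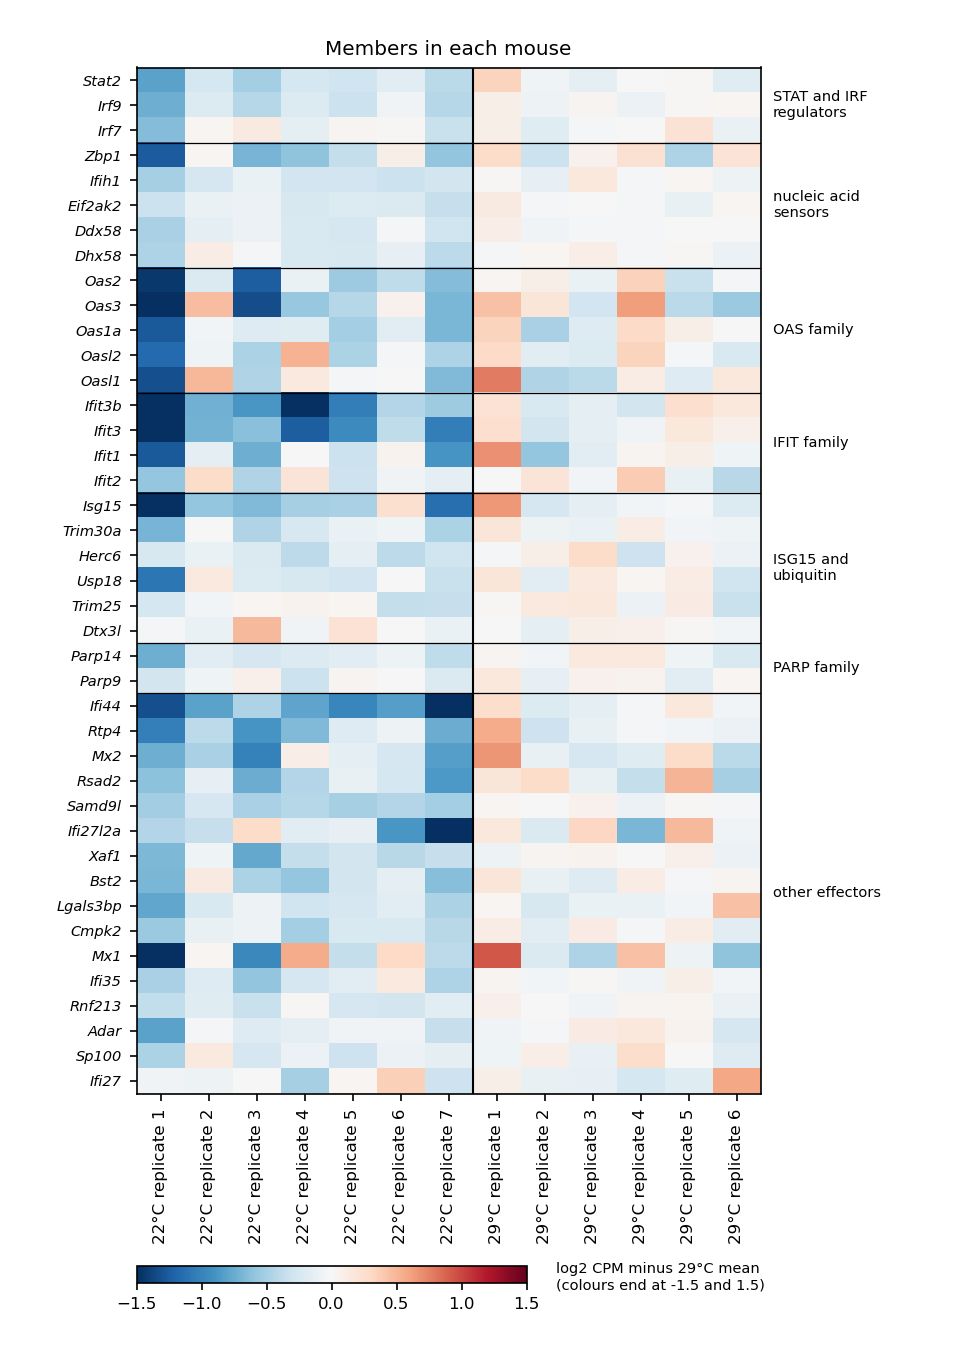
Log2 CPM of each member in each of the 13 mice, as the difference from the 29°C mean, by role; blue is lower and red is higher, and the colours end at -1.5 and 1.5. The column of 22°C replicate 1 is the bluest, and *Samd9l*, *Ifi44*, *Ifit3* and *Ifit3b* are blue in all 7 columns at 22°C.

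Muscle RNA also differed among these libraries. The 11 skeletal muscle markers made up between 0.0737% and 6.80% of counts at 22°C (median 0.639%) and between 0.00840% and 0.642% at 29°C (median 0.137%). All 11 had fold changes above 0. None was called with edgeR, where 4 were higher at an unadjusted p below 0.05, and DESeq2 called *Acta1*, *Myh4*, *Atp2a1* and *Myh2* higher at 22°C. The highest shares, 6.80% and 4.76%, were in 22°C replicates 7 and 1, which were among the lowest for the members. Without both libraries *Ifit3*, *Ifit3b*, *Samd9l* and *Ifi44* were still called lower with edgeR, 0.83% of all genes were, 38 of 41 members and 49.6% of all genes were below 0, and the member median was -0.23. With the muscle score as a covariate *Samd9l* alone was called, beside 0.18% of all genes, 39 of 41 members and 48.8% of all genes were below 0, and the member median was -0.28. 22°C replicate 3, with the second lowest member median, had 0.117% of its counts in muscle markers. At a similar share of 0.112%, 22°C replicate 6 had a member median of -0.08, within the 29°C range. The part of muscle RNA in the members' differences was not tested.

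**Figure D5:**
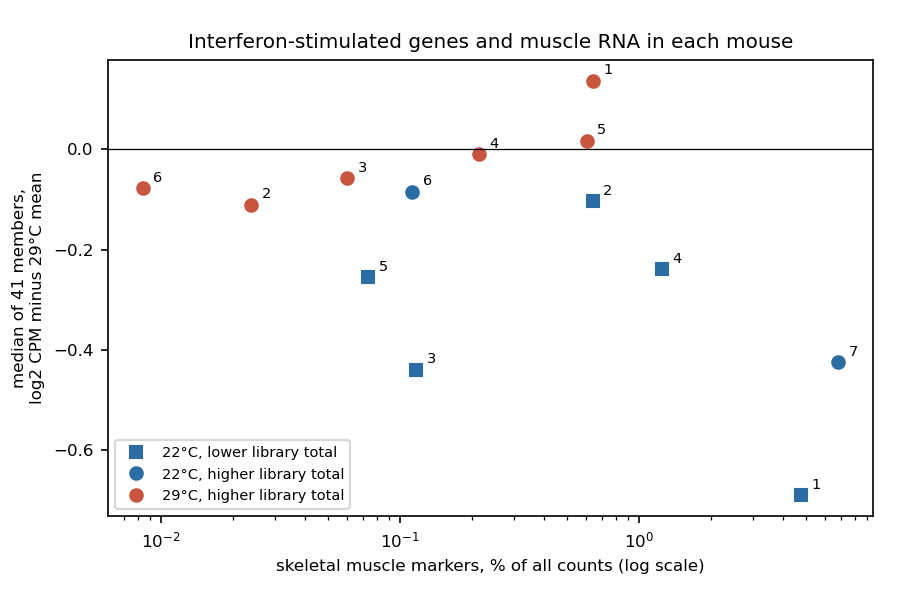
Median over the 41 members of log2 CPM minus the 29°C mean in each mouse, against the share of counts in 11 skeletal muscle markers (log scale); numbers are replicates and squares are the 5 libraries with lower totals. 22°C replicates 1 and 7 are at the right and low. With little muscle RNA, 22°C replicates 3 and 5 are low and 22°C replicate 6 is within the 29°C range.

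The levels of other cell types were checked with marker lists. Mature adipocyte markers were abundant in every library, between 21787 and 35193 CPM in sum, as the tissue label states. Of these 8 markers 4 had fold changes below 0 and 4 above, and edgeR called 0. *Adipoq* was lower at an unadjusted p below 0.05 (log2 fold change -0.31, P-adj = 0.247). The macrophage markers summed to between 710 and 1459 CPM at 22°C (median 1129) and between 771 and 1525 at 29°C (median 1103), with a median log2 fold change of -0.13 over the 11 markers. With edgeR 0 of 11 were called and 1 was lower at an unadjusted p below 0.05. This was *Mertk*, a receptor for the uptake of dying cells, with 29.6 ± 3.97 CPM at 22°C and 41.2 ± 9.89 at 29°C (log2 fold change -0.48, P-adj = 0.131), and DESeq2 called it lower (P-adj = 0.0335). 22°C replicate 1 had the lowest macrophage sum, 710 CPM. The next lowest, 771 CPM, was in 29°C replicate 5, whose member median was 0.02. Among the cool-housed mice, replicates 6 and 2 had the highest macrophage sums, 1459 and 1353 CPM. These mice also had the highest member medians at 22°C, -0.08 and -0.10. The highest sum of all, 1525 CPM, was in 29°C replicate 1, which had the highest member median, 0.14. Endothelial markers summed to between 393 and 553 CPM at 22°C and between 397 and 581 at 29°C. Markers of plasmacytoid dendritic cells, potent makers of interferon, had low sums of 1.63 to 5.47 CPM at 22°C and 2.20 to 3.22 at 29°C, and *Siglech*, the 1 of 3 that passed the filter, had 3.41 ± 1.36 and 2.37 ± 0.367 CPM (P-adj = 0.299). Lymphocyte markers summed to between 5.20 and 28.1 CPM at 22°C and between 3.66 and 20.6 at 29°C. *Cd3e* was called higher at 22°C with edgeR (1.04 ± 0.553 against 0.297 ± 0.166 CPM, P-adj = 0.0817), and DESeq2 gave it no P-adj. The part of these cells in the members' differences was not tested. In bulk tissue, fewer cells of a type and less RNA per cell cannot be told apart.

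The other genes of the pathway showed no call with edgeR or limma. Of 60 listed genes that are not members, 44 were found and 38 were tested, with 24 fold changes below 0 and 14 above and a median of -0.05. Of these 38 genes 3 were lower at an unadjusted p below 0.05, as were 8.2% of all genes. DESeq2 called 2 of them lower, among them *Irf8*, while it called 4.65% of all the genes it adjusted lower. The interferons themselves were near absent. Of 21 ligand genes 5 were found and none passed the filter, with at most 5 counts in any library for *Ifng* and at most 1 for *Ifnb1*, which the depth of these libraries cannot compare.

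Receptors and kinases upstream of ISGF3 had a median log2 fold change of -0.07 over 8 genes. Their most abundant genes were *Ifngr1*, a subunit of the interferon gamma receptor, with 199 ± 44.6 and 215 ± 52.7 CPM, and *Jak1* with 178 ± 18.3 and 191 ± 10.8 CPM (log2 fold changes -0.12 and -0.09). Over the 7 other STAT and IRF factors the median was -0.08. *Stat3* was at 0.08 (P-adj = 0.544). *Irf8*, a factor of macrophages and dendritic cells that is named here after its values were seen, was at -0.38 (P-adj = 0.116).

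Adaptors and kinases of RNA and DNA sensing had a median of -0.02 over 12 genes. *Mavs*, the adaptor through which RIG-I and MDA5 signal, had 78.3 ± 5.51 and 79.6 ± 5.07 CPM (log2 fold change -0.02, P-adj = 0.859). Genes of feedback and nucleic acid clearance had a median of -0.03 over 11 genes. Of these *Samhd1*, which degrades deoxynucleotides, was at -0.06 (P-adj = 0.850) and *Rnaseh2a*, a subunit of ribonuclease H2, had 36.9 ± 2.33 and 36.9 ± 2.19 CPM.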

How the data were processed

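RNA of gluteal WAT from 13 mice was sequenced, and the labels gave each mouse's temperature and replicate number. The authors aligned reads with STAR 2.7.5a, made per-gene counts with featureCounts, and deposited these raw counts of 34419 genes, and the authors also deposited a DESeq2 regularized log2 table of these genes. The submitters' processing notes name GRCm39, and the paper names mm10 for cultured cells. The strand setting is not given in the sources used here, so counts of overlapping genes are uncertain. Gene names were matched by identifier, which gave a symbol for 34006 genes.

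Counts were compared with edgeR 4.0.16 in R 4.3.3 (TMM, filterByExpr, quasi-likelihood F test, Benjamini-Hochberg adjustment over all genes tested, P-adj below 0.1, no covariate). Standard errors are the absolute log2 fold change over the square root of F, and 95% intervals use the test's degrees of freedom. TMM-scaled library sizes gave the CPM, with a prior count of 2 on the log2 scale. Totals were between 22356637 and 25245785, and a count of 0 allows 3 counts, or between 0.113 and 0.158 CPM, for counting error only. The lowest chi-square per gene over the pairs of libraries was 17.1, so none was a repeat of another.

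Alternatives were DESeq2 1.42.0, its size factors in edgeR, a mean of 10 counts or no filter, a replicate block, robust quasi-likelihood, each mouse left out, the mean log2 CPM of muscle markers as a covariate, muscle markers removed, limma 3.58.1 on the deposited log2 values, P-adj below 0.05, and a covariate for lower or higher library totals, or the higher totals alone. Leaving out both libraries with more than 4% of counts in muscle markers was chosen after seeing the data. The methods were tested on simulated counts. Promoter windows are from RefSeq, and exon lengths and shared 50-base stretches from GENCODE, both on GRCm38, which may not be the build of the counts.

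The members and the pathway and marker lists were chosen with earlier results of these data known. All 41 members are named. Of the pathway lists, genes called and the 2 most abundant of each list are named, and *Irf8* in addition. Some genes that this rule gives are not reported here by name.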

Additional observations from a re-analysis of the deposited data

Results flagged for a closer look

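In 82 groups of mice, each the values of 1 member at 1 temperature, 5 held a mouse far from the others of its group by Dixon's criterion, which chance meets in about 1 of 20 groups. *Isg15* was 7.72 CPM in 29°C replicate 1, where the next mouse had 4.89, and *Rtp4* in the same mouse was 36.2 CPM, where the next had 24.3. *Usp18* was 5.27 CPM in 22°C replicate 1, where the next mouse had 8.82, and *Adar* in the same mouse was 21.7 CPM, where the next had 29.9. *Samd9l* was 43.6 CPM in 22°C replicate 2, above the next mouse at 38.8 and still below all mice at 29°C.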

How the results depend on the processing

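DESeq2 size factors, robust quasi-likelihood, a mean of at least 10 counts, removal of muscle markers and limma on the deposited log2 values each called the same 6 members. DESeq2 called 17 members, 1676 genes in all and 2 pathway genes. Without the low count filter 1 member and 42 genes were called, at P-adj below 0.05 2 members and 40 genes, and with the muscle score as a covariate 1 member and 48 genes, against 6 members and 345 genes in the report. With a covariate for lower or higher library totals 0 members and 4 genes were called by edgeR (11 members and 5.64% of all genes were lower at an unadjusted p below 0.05), and with the higher totals only 0 members and 8 genes, in a fit with 2 mice at 22°C. Leaving out each mouse in turn called 1 to 12 members, 32 to 652 genes and 0 to 1 pathway genes, lowest without 29°C replicate 3 and highest without 22°C replicate 6 for members and genes, with a median log2 fold change of -0.35 to -0.26 and 0 members higher. With the replicate block 2 members (*Ifit3b* and *Samd9l*) and 214 genes were called. The block's numbers were not taken to pair mice, since the labels do not say that they do and the deviations of same-numbered mice correlated at 0.0508 for replicate 5, under the 0.1 asked of every pair, although the other pairs lay between 0.348 and 0.513 and 4 of 6 mice at 22°C correlated best with their own number.

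The sign of 4 uncalled members turned. *Dtx3l* was -0.0042 without 22°C replicate 3 (range -0.0042 to 0.10 over mice left out), -0.045 with the cluster covariate and -0.054 with the higher totals only. *Ifi27* was 0.056 without 29°C replicate 6 (range -0.17 to 0.056), 0.11 with the muscle score, 0.033 with the cluster covariate and 0.022 with the higher totals only. Without both muscle-rich libraries *Irf7* was 0.012 and *Oasl1* 0.0015. The ISRE share of the members' promoters was 43.3% with the core and 23.3% with the longer form. The cause of these changes was not tested. Differences in members below a few CPM, such as *Oas3* and *Mx2*, are limited by depth.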
